A study of Mus musculus with 8 samples.

Results

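The genes examined here are Runx1, Runx2 and Runx3, which encode the mouse RUNX transcription factors, and Cbfb, which encodes their common partner subunit. They were chosen by name as a family, with earlier results of these data known. They make up 4 of the 21631 protein-coding genes in the gene annotation used. For each gene, binding sites of the transcription factor GATA2 were counted in the gene body, in or within 10 kb of it, and in or within 100 kb of it. The sites come from chromatin immunoprecipitation followed by sequencing (ChIP-seq) with a GATA2 antibody in 3T3-L1 cells, a mouse fibroblast line used as a model of fat cell precursors, and in C3H10T1/2 cells, an uncommitted mouse line from embryonic tissue with the potential to form several mesenchymal lineages, bone and fat among them. Both lines were used at passages 4 to 6, and the labels name no treatment or genetic change in either. Of 8 libraries, 2 per line are GATA2 ChIP and 2 per line are input chromatin without antibody. Per the labels' protocols, DNA from individual immunoprecipitations was pooled before amplification, so the ChIP libraries of a line need not stand for separate cultures.

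The deposited values are 1 list of peak positions per line, with 2445 peaks in 3T3-L1 and 1557 in C3H10T1/2. A peak is a stretch of chromosome that the authors' peak caller marked as enriched. The lists hold no height, score or p-value, so a peak is either present or absent, and the read depth behind it is unknown. Because a line has 1 list, no replicate error exists for any contrast of the lines, and no such contrast was tested. The identity of the cells could not be checked against marker genes, since no expression values were analysed. Coordinates are mm10, counted from 1.

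RUNX proteins bind DNA through the Runt domain, and CBFB, which does not contact DNA itself, binds that domain and strengthens its hold. RUNX1 is needed to form blood stem cells and works there beside GATA2, RUNX2 commits mesenchymal precursors to bone, and RUNX3 acts in T cells and in sensory neurons. Each Runx gene is transcribed from a distal and a proximal promoter, which give proteins with different N-terminal ends.

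The promoter sequences are shown first because the sites described below lie away from them, and because the distal promoters have a stretch in common. RefSeq promoter sequences of GRCm38.p6 (the mm10 assembly), each made of the 250 bases before an annotated start and the first 50 bases of the transcript, matched all 4 genes. Runx1 and Runx3 each had a first (distal) and a second (proximal) start there, while Runx2 and Cbfb had 1. The longest run common to the first promoters of Runx1, Runx2 and Runx3 was 18 bases long, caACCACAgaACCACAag, and its capitals mark the RUNX recognition letters TGTGGT as read on the opposite strand (ACCACA). It occurs on either strand in 4 of the 32851 promoters in the table. These are the promoters of the 3 Runx genes, from which the run was taken, and that of the noncoding RNA gene Gm16225. The run begins 27 bases into the transcript at Runx1, 22 bases into it at Runx2, and 136 bases before the start at Runx3. Gm16225 lies 0.269 kb before Runx3, and the Runx3 copy falls between the genes. The Gm16225 match may thus be that same copy and is not counted as a separate occurrence. In the sequences here, capitals mark every match to TGTGGT on either strand. The second Runx1 promoter is included because it is the annotated start of the family nearest to any peak.
Runx1 first start, chr16:92826025-92826324, minus strand: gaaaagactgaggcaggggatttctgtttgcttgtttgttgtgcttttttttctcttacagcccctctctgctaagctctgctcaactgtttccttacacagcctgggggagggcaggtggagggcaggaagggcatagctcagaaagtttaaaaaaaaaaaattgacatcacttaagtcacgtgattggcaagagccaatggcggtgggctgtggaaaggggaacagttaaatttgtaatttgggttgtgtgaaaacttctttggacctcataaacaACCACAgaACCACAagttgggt
Runx2 first start, chr17:44814578-44814877, minus strand: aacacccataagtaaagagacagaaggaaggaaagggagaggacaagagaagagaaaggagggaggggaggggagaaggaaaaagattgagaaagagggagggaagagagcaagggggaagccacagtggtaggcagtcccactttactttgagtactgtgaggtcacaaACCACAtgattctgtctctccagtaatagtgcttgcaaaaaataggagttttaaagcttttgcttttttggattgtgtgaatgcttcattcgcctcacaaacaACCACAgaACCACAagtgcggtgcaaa
Runx3 first start, chr4:135120395-135120694, plus strand: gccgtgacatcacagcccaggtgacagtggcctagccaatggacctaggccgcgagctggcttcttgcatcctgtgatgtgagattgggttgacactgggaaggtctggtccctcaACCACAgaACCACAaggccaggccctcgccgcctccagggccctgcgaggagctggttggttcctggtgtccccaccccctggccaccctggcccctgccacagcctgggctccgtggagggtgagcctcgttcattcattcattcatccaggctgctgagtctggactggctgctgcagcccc
Runx1 second start, chr16:92697280-92697579, minus strand: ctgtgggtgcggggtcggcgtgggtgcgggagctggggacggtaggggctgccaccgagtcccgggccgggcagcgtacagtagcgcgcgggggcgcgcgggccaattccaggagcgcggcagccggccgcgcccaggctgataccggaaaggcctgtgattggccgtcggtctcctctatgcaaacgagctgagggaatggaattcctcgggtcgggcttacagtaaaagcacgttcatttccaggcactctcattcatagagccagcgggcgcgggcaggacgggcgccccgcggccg

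The letters TGTGGT were present in the first promoters of all 3 Runx genes, with 2 matches at Runx1, 3 at Runx2 and 2 at Runx3. They were absent from the second promoters of Runx1 and Runx3 and from the promoter of Cbfb. Of all promoters in the table, 16.8% held at least 1 match and 1.81% held at least 2. Recognition letters of GATA factors were searched on both strands as AGATAA or, with another letter at the front, TGATAA, and with another letter at the back as AGATAG or else as TGATAG. None of the 6 promoters of the family held one, against 29.8% of all promoters that did. A match is a description of the letters in the window and not a binding site. The first promoters of Runx1 and Runx2 had a GC content of 45.0% and 45.3%, below the 63.7% of the first Runx3 promoter. The second promoters of Runx1 and Runx3 had 69.0% and 77.3%, and that of Cbfb had 69.7%.

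GATA2 peaks were found inside Runx1 and Runx2 in both lines, and the lists hold none inside or within 100 kb of Runx3 or Cbfb. In 3T3-L1, Runx1 and Runx2 had 1 body peak each. In C3H10T1/2, Runx1 had 4 body peaks and Runx2 had 1. The family thus had body peaks at 2 of 4 genes in each line, where 2.79% of protein-coding genes had one in 3T3-L1, 2.59% in C3H10T1/2 and 1.18% in both. Extending the window added nothing: in or within 10 kb the counts were again 2 peaks in 3T3-L1 and 5 in C3H10T1/2 (background 3.96% and 3.64% of genes), and in or within 100 kb they were the same (13.9% and 12.1%). The nearest peak outside these windows lay 124 kb beyond the end of Runx2, in 3T3-L1.

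**Figure D1:**
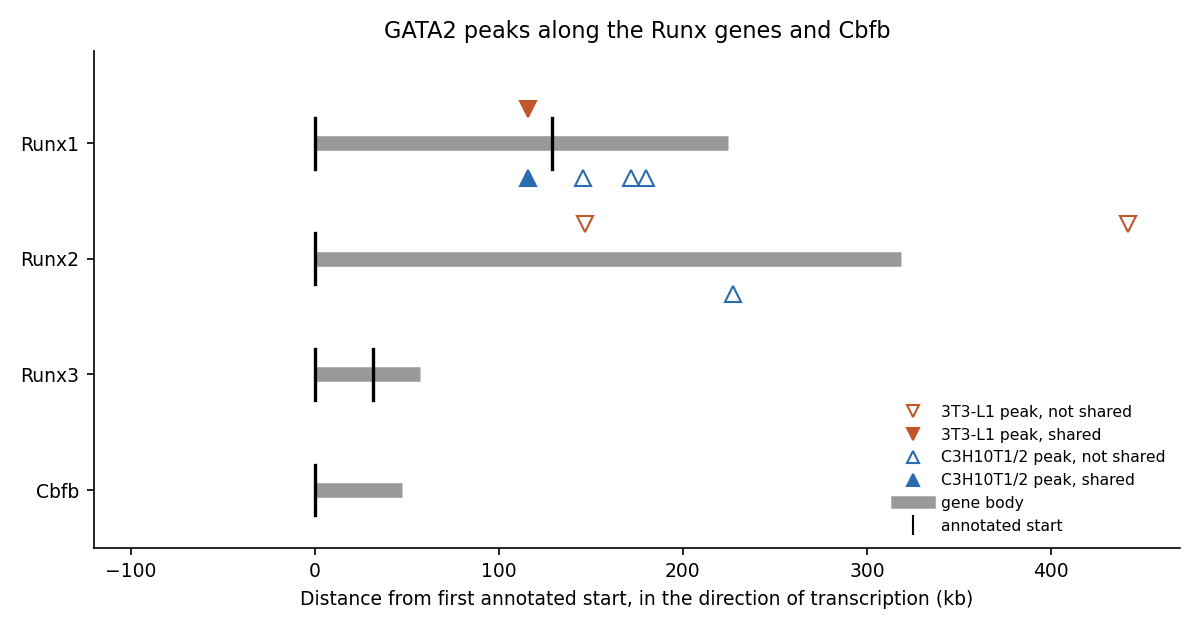
Peaks along Runx1, Runx2, Runx3 and Cbfb, drawn by the distance of the peak centre from the gene's first annotated start in kb, in the direction of transcription. Grey bars are gene bodies, black ticks are annotated starts, triangles above a bar are 3T3-L1 peaks and triangles below it are C3H10T1/2 peaks, filled where the lists overlap. The only overlapping site in these 4 genes lies 13.0 kb before the second start of Runx1.

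Gene length bears on these counts, since a long gene offers more room for a peak. Runx1 spans 225 kb and Runx2 spans 319 kb, while Runx3 spans 57.3 kb and Cbfb spans 47.3 kb. Among genes 0.5 to 2 times as long as Runx1, 14.7% had a 3T3-L1 body peak and 14.0% had a C3H10T1/2 one. For genes of Runx2's length class the shares were 19.4% and 16.1%. The same shares were 3.60% and 3.29% for genes of Runx3's length class, and 2.83% and 2.53% for Cbfb's. In those last classes 94.6% and 95.8% of genes had no body peak in either line, as Runx3 and Cbfb did. Having a peak in both lines was rarer, at 6.16% of genes in the class of Runx1 and 8.32% in that of Runx2.

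**Figure D2:**
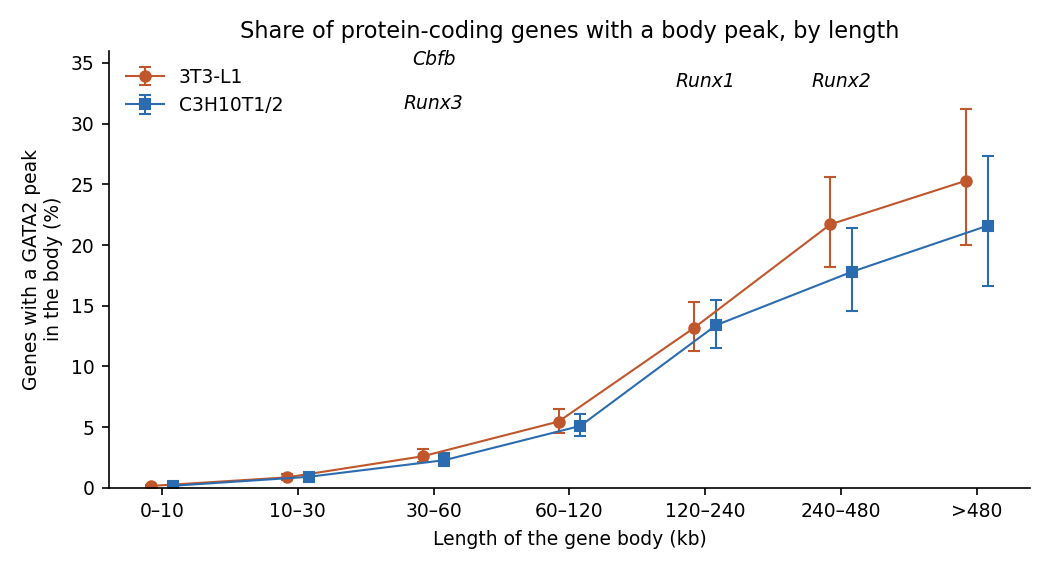
Percent of protein-coding genes with at least 1 GATA2 peak centre in the gene body, by body length in kb, for 3T3-L1 (circles) and C3H10T1/2 (squares); bars are 95% exact Clopper-Pearson intervals, which cover counting error over genes only. Names at the top mark the class of each gene: Runx3 and Cbfb fall where 2.60% and 2.28% of genes have a peak, Runx1 where 13.2% and 13.4% do, and Runx2 where 21.7% and 17.8% do.

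Runx1 (gene ID 12394, chromosome 16, 92601466 to 92826074, minus strand) carried the only site of the family that was found in both lines. In 3T3-L1 the peak ran from 92710271 to 92710369, and in C3H10T1/2 from 92710209 to 92710447. The 99 bp of the 3T3-L1 peak lay wholly inside the 239 bp of the C3H10T1/2 peak, and the centres were 8 bp apart. The site lies between the starts of the gene, 116 kb after the distal one and 13.0 kb before the proximal one, at 51.5% of the gene's length. Of all peaks, 34.7% of the C3H10T1/2 list (interval 32.3 to 37.1) and 22.4% of the 3T3-L1 list (20.8 to 24.1) overlap a peak of the other. A shared body peak was present in 0.985% of protein-coding genes and in 4.50% of genes of Runx1's length class.

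The other 3 peaks in Runx1 were in the C3H10T1/2 list alone, and all lay downstream of the proximal start. The first ran from 92680243 to 92680430, 17.0 kb after the proximal start. The second, from 92653903 to 92654289, lay 43.2 kb after it. The third, from 92645784 to 92646027, lay 51.4 kb after it, at 80.2% of the gene's length and 44.4 kb short of the gene's end. From the third peak to the shared one, the 4 centres spanned 64.4 kb, with gaps of 8.19, 26.2 and 30.0 kb. No peak of either list lay in the first 116 kb of the gene or in the last 44.4 kb, and the nearest 3T3-L1 peak to any of the 3 was the shared one, 30.0 to 64.4 kb away. The noncoding RNA gene Gm30281 lies inside Runx1 and held none of these peaks.

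Few genes had as many C3H10T1/2 peaks in their body as Runx1. At least 4 were present in 13 of 21631 genes (0.0601%), and in 3 of 1802 genes of Runx1's length class (0.166%). Those 3 were Runx1, Galk2 (125 kb), which encodes a galactokinase-related enzyme, and Lama4 (145 kb), which encodes a laminin chain; these names were picked after their values were seen. Of the 12 genes other than Runx1, 9 were longer than it, from 457 kb for Akap6 to 1302 kb for Pde4d. Among the 13 genes Runx1 came next by density, with 17.8 C3H10T1/2 peaks per Mb of gene body, after Sfi1 with 280, Galk2 with 32.0 and Lama4 with 27.6. The ranking is among these 13 genes only, since a short gene with 1 peak can have a higher density. That holds for the 58 genes of 10 to 30 kb with a C3H10T1/2 body peak. Over all protein-coding genes the density was 0.678 per Mb. In 3T3-L1, Runx1 had 4.45 peaks per Mb against 0.882 over all genes, which for Runx1 is a single peak. The difference between 4 peaks and 1 at Runx1 was not tested.

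In wider windows, too, Runx1 had more C3H10T1/2 peaks than the other members. Its count there stayed at 4 out to 250 kb, was 7 within 500 kb and 10 within 1 Mb. At least 10 C3H10T1/2 peaks within 1 Mb were present at 0.453% of protein-coding genes. The 6 outer peaks include a second shared site 496 kb past the end of Runx1, inside the mitochondrial ribosomal protein gene Mrps6 (92105563 to 92105989 in C3H10T1/2, 92105601 to 92105794 in 3T3-L1). Another lay in the endocytosis gene Itsn1, 872 kb past the end, and 1 lay between genes, 392 kb past it. On the upstream side, 3 peaks of C3H10T1/2 lay 438, 591 and 599.8 kb before the first start. Those at 591 and 599.8 kb lay inside the annotated gene 1700029J03Rik, and the one at 438 kb lay in no annotated gene. The nearest protein-coding gene to each of the 3 was Setd4, at 319, 166 and 158 kb in order of distance from Runx1. In 3T3-L1, Runx1 had 2 peaks within 1 Mb, and 39.5% of genes had that many.

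**Figure D3:**
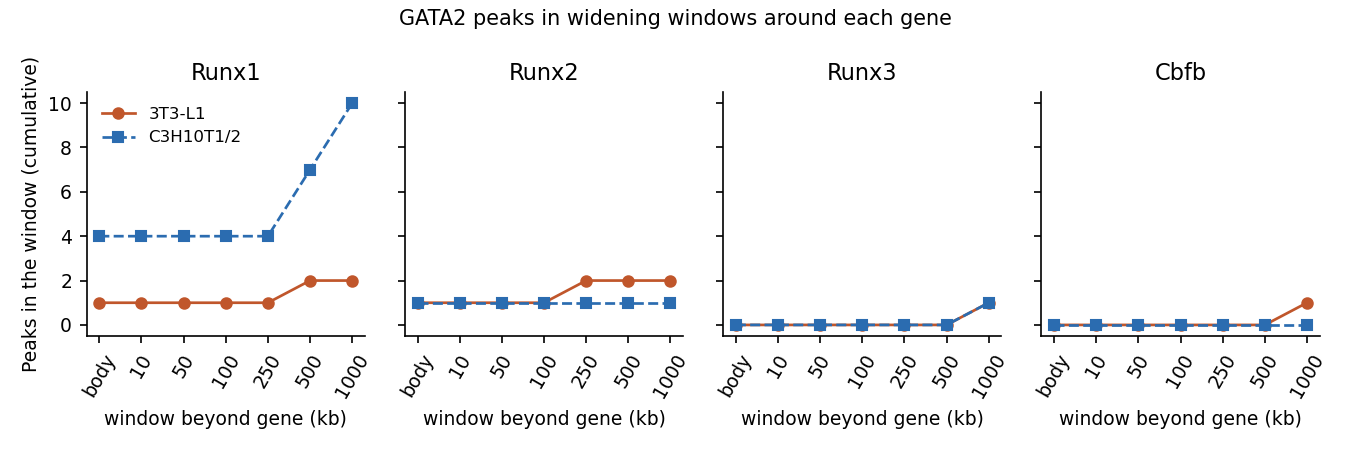
Number of GATA2 peak centres in the gene body and in windows reaching 10 to 1000 kb beyond it (horizontal axis, kb), counted cumulatively, for each of the 4 genes in 3T3-L1 (circles, solid line) and C3H10T1/2 (squares, dashed line). The Runx1 count in C3H10T1/2 goes from 4 to 10, and every other line stays at 2 or fewer.

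Runx2 (gene ID 12393, chromosome 17, 44495987 to 44814797, minus strand) had a peak in each line at different places. The 3T3-L1 peak (44667600 to 44667732) lay 147 kb after the first start, at 46.1% of the gene's length. The C3H10T1/2 peak (44588027 to 44588192) lay 227 kb after it, at 71.1%. Their centres were 79.6 kb apart. The first promoter of Runx2 overlaps the neighbouring gene Supt3, which encodes a subunit of a histone acetyltransferase complex, but both peaks lie outside that overlap, and Supt3 held none. Neither peak lies in Runx2os3, a noncoding RNA gene inside Runx2.

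This arrangement, with body peaks in both lines of which none overlap, was the less common one. Of 256 genes with a body peak in both lines, 212 (82.8%) had one that overlapped and 44 did not. Genes of the latter kind were 0.203% of all protein-coding genes and 2.66% of genes of Runx2's length class. In that class, 100 genes had a body peak in both lines, and 32 of them had none that overlapped. Within 1 Mb of Runx2 there was 1 further peak, that of 3T3-L1 at 44372235 to 44372317, 124 kb beyond the gene's end. It was 83 bp wide, and 8.63% of the 3T3-L1 peaks were narrower.

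Runx3 and Cbfb had no site nearby. Runx3 (gene ID 12399, chromosome 4, 135120645 to 135177990, plus strand) had its nearest 3T3-L1 peak 517 kb upstream, inside the mannosidase gene Man1c1 (134603656 to 134603799). Its nearest C3H10T1/2 peak lay 962 kb downstream (136140287 to 136140461), inside the annotated gene Gm42329. The nearest protein-coding gene to that peak, at 3.45 kb, was Id3, which encodes an inhibitor of basic helix-loop-helix factors. Of all protein-coding genes, 46.3% had a closer 3T3-L1 peak than Runx3 did and 57.8% a closer C3H10T1/2 peak. Cbfb (gene ID 12400, chromosome 8, 105170674 to 105217989, plus strand) had its nearest 3T3-L1 peak 931 kb downstream, 1.79 kb from the phospholipase gene Pla2g15. Its nearest C3H10T1/2 peak was 1405 kb away, and 41.0% of protein-coding genes had no C3H10T1/2 peak within 1 Mb. For Cbfb, 63.6% of genes had a closer 3T3-L1 peak and 69.2% a closer C3H10T1/2 peak. Absence from a list does not show that a gene is not bound, since the depth and the threshold behind the lists are unknown.

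No member had a peak at an annotated start. The shortest distance from any of the 6 starts to a peak centre was the 13.0 kb at the proximal start of Runx1, in both lines. For the distal start of Runx1 it was 116 kb in both lines. For the only annotated start of Runx2 it was 147 kb in 3T3-L1 and 227 kb in C3H10T1/2. No proximal Runx2 start was in the annotation used, so its distance to a peak was not measured. Over the 32619 annotated starts on the chromosomes of the lists, a peak within 10 kb was present at 1.53% for 3T3-L1 and 1.34% for C3H10T1/2, and within 20 kb at 3.07% and 2.49%. These are shares of starts, and the share of peaks that lie close to a start was not counted.

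The width of a peak is the one other property that the lists give. In C3H10T1/2, the peaks in Runx1 were 188, 239, 244 and 387 bp wide, all above the list's median of 184 bp. The widest, 43.2 kb after the proximal start, was wider than 96.3% of the list. The shared peak was wider than 74.7% of the list in C3H10T1/2, but at 99 bp in 3T3-L1 it was wider than 20.0% of that list, whose median is 144 bp. The Runx2 peaks were below the median in both lines, at 133 bp in 3T3-L1 and 166 bp in C3H10T1/2. Keeping only peaks of at least the median width of their list left the 4 Runx1 peaks of C3H10T1/2 and 0 member peaks in 3T3-L1.

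**Figure D4:**
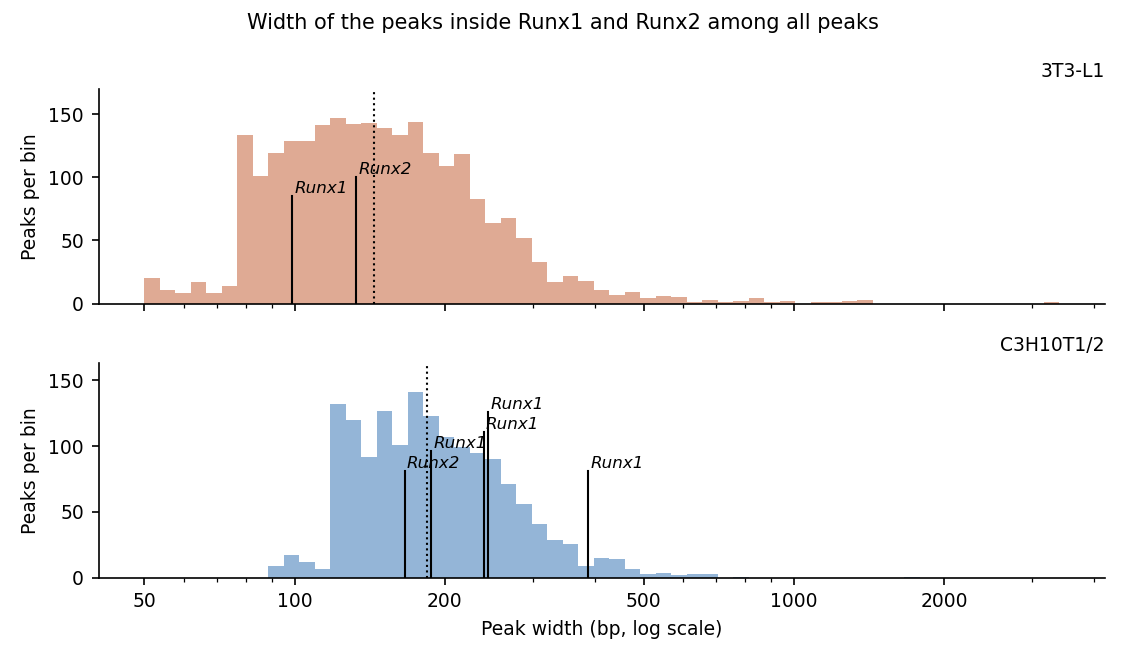
Histograms of peak width in bp (log scale) for all peaks of 3T3-L1 (top) and C3H10T1/2 (bottom), with dotted lines at the medians of 144 and 184 bp. Vertical lines mark the peaks inside Runx1 and Runx2; the 2 in 3T3-L1 lie left of the median, and the 4 of Runx1 in C3H10T1/2 lie right of it.

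The genes beside the members were listed to see whether any of them also covers a member's peak. Within 100 kb of Runx1 lie Clic6, a chloride channel family gene, and the noncoding RNA genes Gm30224 and Gm30281. Beside Runx2 are Supt3, 4930564C03Rik, Gm52304 and Runx2os3, and beside Runx3 are Clic4, Gm42327 and Gm16225. Cbfb has the densest surroundings, with 18 annotated genes in that distance, among them the death receptor adaptor gene Tradd, the heat shock factor gene Hsf4, the cell cycle factor gene E2f4 and Mir328. None of these 28 genes had a body peak in either line. The same holds for 95.8% of all protein-coding genes, a share that does not cover the noncoding genes and pseudogenes among the 28. The peaks in Runx1 and Runx2 thus fall in no other annotated gene.

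The genes whose counts most resembled those of the members were found by matching all 6 counts (body, 10 kb and 100 kb in each of the 2 lines). For Runx1 a single gene matched, Celf2 on chromosome 2, which encodes an RNA-binding splicing factor and at 857 kb is far longer. It too had a shared body peak. For Runx2, 111 genes had the same counts. The 5 closest in length were Stau2, Kctd16, Adamtsl3, Pdzd2 and Sorcs2, of 279 to 381 kb, and of these Kctd16 and Sorcs2 had their peaks at a shared site.

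Partners of the RUNX proteins were counted next, from a list of 34 cofactors and DNA-binding partners. In 3T3-L1, 2 had a body peak (5.88%) and 5 had one in or within 100 kb (14.7%). In C3H10T1/2 it was 3 (8.82%) and 4 (11.8%). Over all genes the body shares were 2.79% in 3T3-L1 and 2.59% in C3H10T1/2, and those within 100 kb were 13.9% and 12.1%. The list's genes are long, with a median of 63.5 kb against 17.3 kb over all genes. Among genes 0.5 to 2 times as long as Runx3, whose 57.3 kb is close to that median, the body shares were 3.60% and 3.29%. Their median distance to the nearest peak was 380.0 kb in 3T3-L1 and 696 kb in C3H10T1/2, against 588 and 743 kb over all genes.

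The partner with a site in both lines was Tle1, which encodes a Groucho corepressor that binds the C-terminal end of RUNX proteins. Its peak on chromosome 4 ran from 72195188 to 72195333 in 3T3-L1 and from 72195101 to 72195333 in C3H10T1/2, inside the gene (72109945 to 72200989). In 3T3-L1 alone, Hdac4, which encodes a histone deacetylase that represses RUNX2 in cartilage, had a body peak (chromosome 1, 92042074 to 92042185). In C3H10T1/2 alone, body peaks were present in Smad3 (chromosome 9, 63720992 to 63721120) and Smad5 (chromosome 13, 56703863 to 56704065), whose products carry TGF-beta and BMP signals and bind RUNX proteins. Farther out, Ets1, Kat6b and Cbfa2t2 had a 3T3-L1 peak at 34.1, 35.0 and 44.7 kb, and Kat6a had a C3H10T1/2 peak at 94.6 kb. The other 26 genes had none within 100 kb in either line, among them Gata2 itself, Runx1t1, Fli1, Erg and Tal1.

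Target genes of RUNX proteins were counted in 3 further lists. Of 20 bone and cartilage genes that RUNX2 acts on, 4 had a peak in or within 100 kb in each line (20.0%), and 1 had a body peak: Phex, a phosphate-regulating endopeptidase gene, in 3T3-L1 (chromosome X, 157276736 to 157277050). Over all genes the shares were 13.9% in 3T3-L1 and 12.1% in C3H10T1/2 within 100 kb, and 2.79% and 2.59% for bodies, so these counts are near the background. A peak 83.2 kb from the hypertrophic cartilage collagen gene Col10a1 was present in both lines, and was the nearer of 2 within 100 kb in 3T3-L1. In 3T3-L1 alone there were peaks 32.5 kb from Tnfsf11, which encodes the osteoclast factor RANKL, and 32.6 kb from the growth factor receptor gene Fgfr2. In C3H10T1/2 alone, 2 peaks lay within 100 kb of Tnfrsf11b, which encodes the RANKL decoy osteoprotegerin, the nearer at 13.0 kb. Also in that line alone, a peak lay between Spp1 and Ibsp, which encode bone matrix proteins, 35.3 kb from Spp1 and 88.3 kb from Ibsp. Both genes are counted for this 1 peak, so the 4 genes counted in C3H10T1/2 do not stand for 4 separate sites. The osteoblast genes Sp7, Bglap, Alpl, Col1a1 and Col1a2 had none within 100 kb in either line.

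Of 16 blood genes that RUNX1 acts on, 3 had a peak in or within 100 kb in each line (18.8%, against 13.9% of all genes in 3T3-L1 and 12.1% in C3H10T1/2). The count of body peaks was 0 of 16 in both lines, where 2.79% and 2.59% of all genes had one, so it says nothing particular about the list. The nearest was at Cebpa, which encodes a factor of both granulocyte and fat cell formation, with a 3T3-L1 peak 2.41 kb away (chromosome 7, 35124298 to 35124379). The platelet chemokine gene Pf4 had 7 peaks nearby in the 3T3-L1 list and 6 in the C3H10T1/2 list, in or within 100 kb, with the nearest 14.1 kb away in both. The receptor gene Csf1r had a 3T3-L1 peak at 79.3 kb. In C3H10T1/2 alone the myosin gene Myh10 had one at 16.6 kb and the neutrophil elastase gene Elane one at 46.4 kb. Of 10 T cell, neuronal and growth arrest genes that RUNX3 acts on, 1 (10.0%, against 13.9% of all genes) had a 3T3-L1 peak in or within 100 kb and 2 (20.0%, against 12.1%) had a C3H10T1/2 peak. Tbx21, a T cell factor gene, had 1 peak in 3T3-L1, at 72.9 kb, and 2 in C3H10T1/2, the nearer at 68.2 kb. The cell cycle inhibitor gene Cdkn1a had a C3H10T1/2 peak at 32.8 kb. The median distance to the nearest peak in 3T3-L1 was 431 kb for the bone and cartilage list, 379 kb for the blood list and 494 kb for the last list. In C3H10T1/2 it was 449, 464 and 361 kb in the same order. Lists of 10 to 20 genes are small, and 1 gene more or less moves their share by several percentage points. The blood factor gene Spi1, which had no peak within 100 kb, is in both the partner and the blood list.

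**Figure D5:**
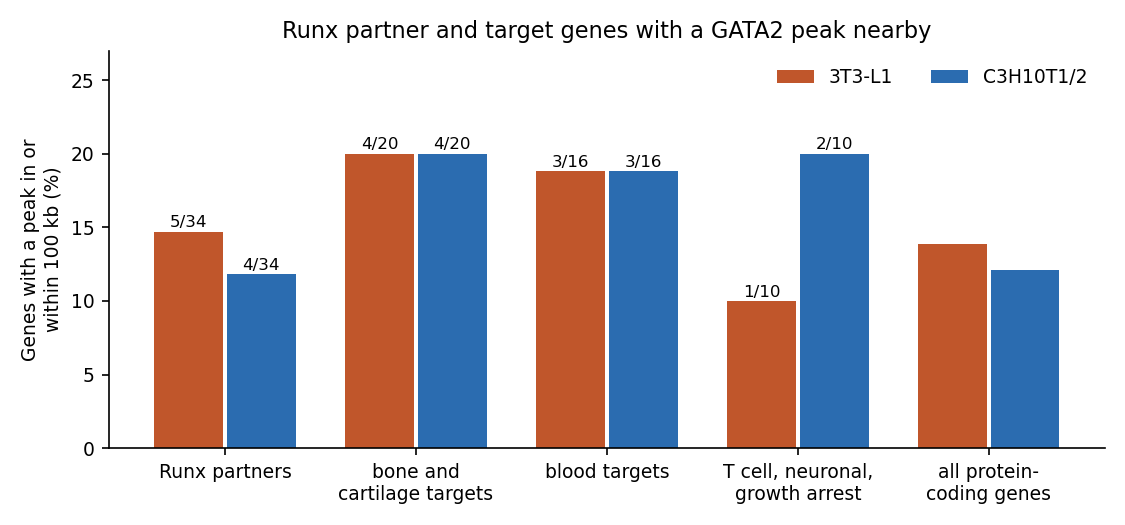
Percent of genes with a GATA2 peak centre in or within 100 kb of the gene, for 4 lists of RUNX partner and target genes and for all protein-coding genes, in 3T3-L1 and C3H10T1/2. Fractions over the bars give the genes with a peak out of those in the list; the list shares lie between 10.0% and 20.0%, beside 13.9% and 12.1% over all genes.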

How the data were processed

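Each line is represented by 1 peak list as deposited by the authors, with chromosome, start and end in bp and no other column; no score or p-value is given. Per the submitters' processing notes the build was mm10 and the tools MACS2, Bowtie2, bedtools, SAMtools and CASAVA 1.8; their roles and settings are not given. How libraries and inputs were combined, the threshold and any filter are not given in the sources used here, and they set how many peaks a list holds and how wide they are.

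From these lists, Python 3.11.15 with NumPy 2.4.6 and SciPy 1.17.1 assigned a peak to a gene window by its centre. Genes were the 21631 protein-coding genes of RefSeq GRCm38.p6 on chromosomes that carry peaks; strand and starts came from its promoter table. Exon positions were not used here. Peaks were shared if they overlapped by at least 1 bp. Intervals are 95% exact Clopper-Pearson intervals for counting error. No test was made, since each line has 1 list. Window counting and sharing were checked on simulated peaks. Named genes were the members, genes within 100 kb of them, list genes with a peak within 100 kb, and the genes closest in length among those with the same counts; the genes nearest to peaks beyond 100 kb, the genes with at least 4 C3H10T1/2 body peaks and the list genes without a peak were named after their values were seen. A gene of the planned partner list is not reported here and enters none of the list's counts. The members and lists were chosen with earlier results of these data known. Alternatives were window overlap in place of centres, wider peaks alone, lists without dense blocks (at least 8 peaks with gaps of at most 20000 bp), length classes, and other overlap rules.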

Additional observations from a re-analysis of the deposited data

How the results depend on the processing

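The 7 summary counts (member peaks in 3 windows and 2 lines, and shared member peaks) were 2 in 3T3-L1 and 5 in C3H10T1/2 in each window, with 1 shared site. Counting peaks that overlap a window, and leaving out dense blocks (454 peaks of 3T3-L1 and 20 of C3H10T1/2), changed none of the 6 window counts. With peaks of at least the median width alone, the 3T3-L1 counts fell to 0 in all 3 windows, those of C3H10T1/2 were 4, and shared sites were 0. Requiring an overlap of 50% of both peaks also gave 0 shared sites, because the 3T3-L1 peak in Runx1 covers less of the wider C3H10T1/2 peak; with centres within 1 kb it was 1. With wider peaks the share of all genes with a body peak was 1.53% in 3T3-L1 and 1.42% in C3H10T1/2.

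No paired analysis was possible because each line has 1 list made from its libraries, with no value per replicate. For the same reason leaving out each replicate was not run. Depth, thresholds and background of the lists are unknown.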
